A study of Mus musculus with 2 samples.

Results

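The proteasome is the large protease complex that degrades proteins marked with ubiquitin. Its 20S core is a barrel of stacked rings, in which outer rings of alpha subunits gate the entrance and inner rings of beta subunits hold the proteolytic sites, and its 19S particle recognises, unfolds and feeds in the substrate with a ring of ATPases and a lid of other subunits. In germ cells some standard subunits and activators are replaced or joined by special forms, and immune signals replace the catalytic beta subunits by others. The genes described here are 38 constitutive proteasome genes of the mouse. They were taken by gene name from a list without *Sem1* and *Adrm1*, which encode other 19S or bound proteins. They are the 7 genes of the alpha ring (*Psma1* to *Psma7*), the 7 standard genes of the beta ring (*Psmb1* to *Psmb7*), the 6 ATPases of the 19S base (*Psmc1* to *Psmc6*), 11 other 19S subunits and 3 base assembly chaperones that carry *Psmd* names, and 4 activators (*Psme1* to *Psme4*). All 38 had sense tags, out of 14292 genes with a sense tag of their own, and 37 of the 38 had at least 100 tags over both libraries.

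Digital gene expression (DGE) tag profiling was done on 1 library of GC-1spg cells and 1 library of GC-2spd (ts) cells. GC-1spg was derived from type B spermatogonia of a mouse aged 10 days, with pSV3-neo as the transforming plasmid. GC-2spd (ts) was derived from a spermatocyte of a mouse aged 6 weeks that was transformed with SV40 large T antigen. Both lines were grown in DMEM with serum. Donor age, founder cell and transforming construct differ together between the lines and cannot be told apart. Each group is 1 library of 1 line, so no difference below has a replicate check, and each test compares these 2 libraries, not the stages of spermatogenesis. Pairs of values below give GC-1spg first.

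The deposited copy numbers added up to 5072149 clean tags in GC-1spg against 4726808 in GC-2spd (ts), so that 1 copy was worth 0.197 and 0.212 TPM (tags scaled to 1000000 clean tags). The labels call both lines male germ cells. Of 19 germ cell markers, 17, among them *Ddx4*, *Dazl*, *Sycp3* and *Dmc1*, had no tag in either library, *Spo11* had 2 copies in GC-1spg, and *Uchl1*, which other cells also express, had 329 and 66. Of 10 fibroblast markers 9 were listed in at least 1 library, with a summed level of 3675 and 2716 TPM. The summed levels were 312 and 94.4 TPM for 8 Sertoli cell markers, 13.0 and 122 TPM for 5 peritubular myoid cell markers, and 0.789 and 1.06 TPM for 6 Leydig cell markers. Single markers of a list went different ways. Among fibroblast markers *Col1a1* had 10465 and 2425 copies but *Vim* 984 and 2897. Among Sertoli cell markers *Wt1* had 620 and 0 and *Clu* 902 and 262, but *Gata4* 29 and 138. Among myoid cell markers *Acta2* had 50 and 555 but *Des* 11 and 4. The part of these differences in the results below was not tested.

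A tag is the restriction site CATG plus 17 bases, a run of 21 bases. It is cut from the 3′ side of a polyadenylated transcript, so each transcript gives 1 tag whatever its length, and a TPM here is a level per transcript. For 34 of the 38 genes the tag with most copies came from the CATG site nearest the 3′ end of an annotated transcript, and in 26 of the 38 genes the leading site held over 90% of the sense tags. The leading tags lay in coding sequence in 19 genes, in the 3′ UTR in 15 and across the end of the coding sequence in 4. In 7 genes the leading tag is also present in a pseudogene. The sequences of the 5 genes that passed the test below are shown first because they mark the sites that the ratios rest on. Each is the annotated sequence, read 5′ to 3′ on the strand of the gene with the CATG site in capitals, and *Psma7* had another form of its tag in GC-1spg, which is given with its values.
*Psmb2*: CATGgctatggtgcctttctg
*Psmb4*: CATGatcagtggctttgaatg
*Psmd4*: CATGggggctctggcctccca
*Psma7*: CATGaggcgggatcagccgct
*Psme1*: CATGgagatccgaaatgctta

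In the coordinates of GRCm38 (GENCODE release M21), the *Psmb2* tag lies at chr4:126706166-126706186 (+) in the coding sequence of exon 4 of the principal transcript, within a gene at chr4:126677630-126709714. The *Psmb4* tag is split by an intron, with 9 bases at chr3:94884671-94884679 in exon 6 and 12 bases at chr3:94884429-94884440 in exon 7 (−), at the end of the coding sequence, within a gene at chr3:94884093-94886961. The *Psmd4* tag lies at chr3:95032863-95032883 (−) in the coding sequence of exon 10, within a gene at chr3:95032694-95042614. The *Psma7* tag lies at chr2:180036942-180036962 (−) in the coding sequence of exon 6, within a gene at chr2:180036374-180042433. The *Psme1* tag lies at chr14:55581117-55581137 (+) in the coding sequence of exon 10, within a gene at chr14:55578123-55581529.

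As a group the proteasome genes stood at almost the same level in both lines. Together they held 28521 tags (5623 TPM, 0.562% of clean tags) in GC-1spg against 28533 tags (6036 TPM, 0.604%) in GC-2spd (ts), at a log2 ratio of 0.10 (95% interval 0.08 to 0.13), or −0.078 under TMM scaling (edgeR's trimmed mean of gene ratios). Intervals on ratios are exact conditional binomial intervals and cover counting error only. The median log2 ratio was 0.05 over the 38 genes and 0.13 over all 14292 genes, and among genes with at least 100 tags it was 0.02 for the 37 proteasome genes and 0.20 for all 7233. Of these 37 genes 24 (64.9%) differed by less than 1.5-fold between the lines, beside 50.8% of all genes at that depth.

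**Figure D1:**
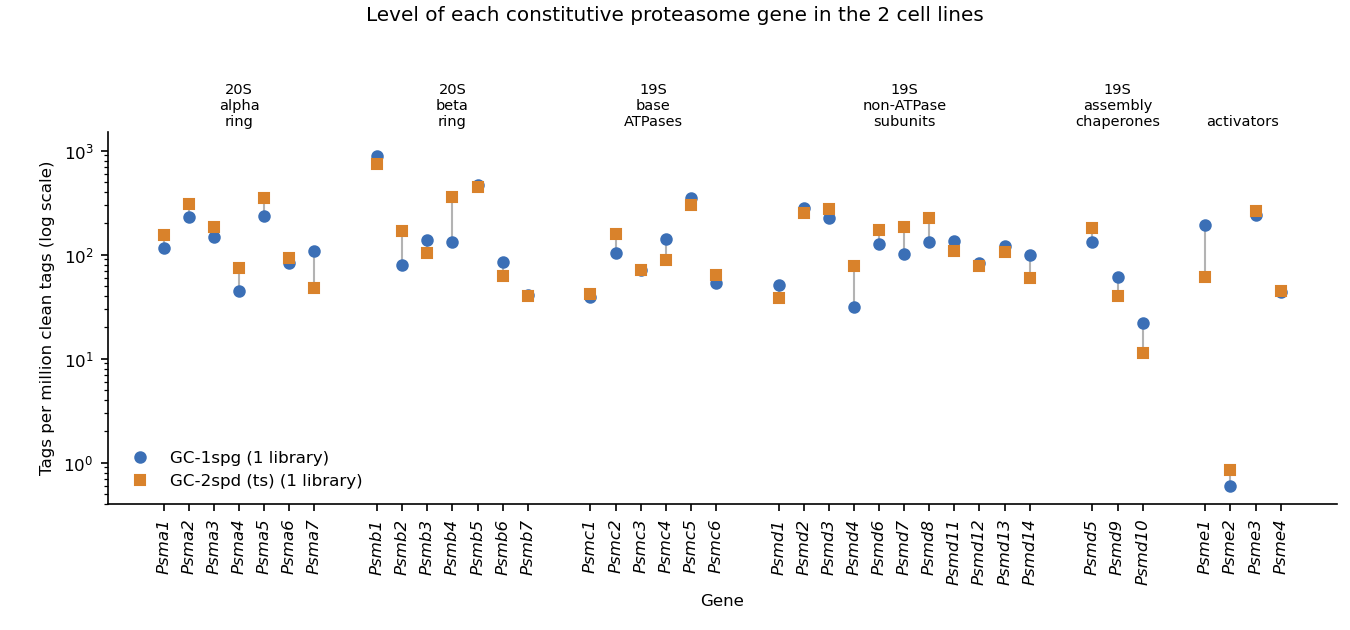
Level of each of the 38 genes in GC-1spg (circles) and GC-2spd (ts) (squares), in TPM on a log scale, by place in the complex; 1 library per line and no error bars. *Psmb1* is the highest in both libraries at 880 and 743 TPM, and *Psme2* lies far below the others because nearly all its tags are shared with a close copy.

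A gene was called at a false discovery rate (FDR, Audic-Claverie test with Benjamini-Hochberg adjustment over all genes) no higher than 0.001 with at least a 2-fold difference between the libraries (log2 ratio of 1 or more in size). *Psmb2*, *Psmb4* and *Psmd4* were called higher, 3 of 38 genes (7.89%), beside 11.8% of all genes with a tag. *Psma7* and *Psme1* were called lower, 2 of 38 (5.26%), beside 7.96% of all genes. Among genes with at least 100 tags the shares were 8.11% beside 16.4% of all genes for higher calls and 5.41% beside 8.70% for lower calls. Without the fold threshold, the counting interval lay above 0 in 15 of 37 genes (40.5%) and below 0 in 14 (37.8%), scaled to clean tags. Among all genes at that depth these shares were 44.7% and 26.7%. The called genes are thus 5 among 29 whose difference was larger than counting error at this scaling. Under TMM scaling, which lowers the ratio of every gene alike, 12 proteasome genes had an interval above 0 and 16 below 0. The shares of all genes at that scaling were not computed, so these counts have no background beside them. The intervals of single genes given below use clean tags. With TMM scaling, which moved each log2 ratio by −0.18, 2 genes were called higher and 3 lower, since *Psmb2* was lost at 0.91 and *Psmd10* was gained at −1.13. No proteasome gene was called by edgeR's exact test once a biological coefficient of variation of 0.2 was assumed, under which 509 genes of the whole table were called higher and 489 lower.

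**Figure D2:**
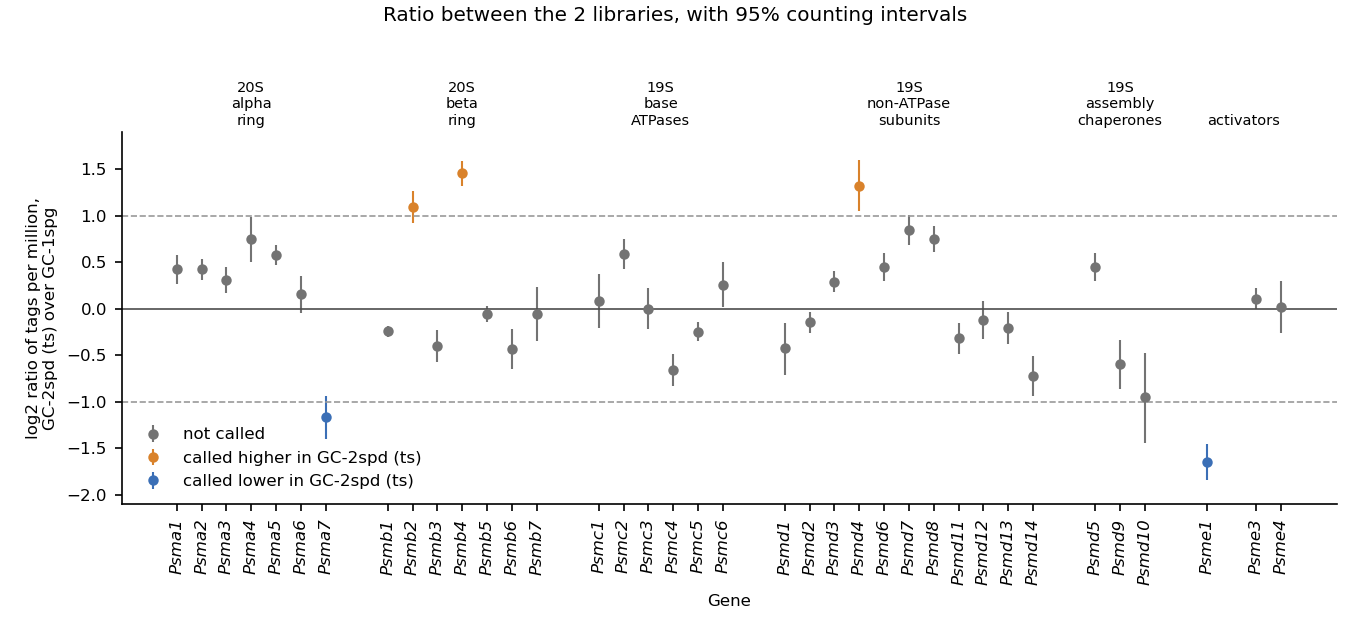
The log2 ratio of GC-2spd (ts) over GC-1spg for the 37 genes with at least 100 tags, with exact 95% intervals for counting error; dashed lines mark a 2-fold difference. *Psmb4*, *Psmd4* and *Psmb2* lie above the upper line, *Psme1* and *Psma7* below the lower one, and 6 of 7 alpha ring genes lie above 0.

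In the alpha ring, which forms the gate of the core, 1 of 7 genes was called lower and the other 6 had log2 ratios between 0.16 and 0.75, of which *Psma6* turns to −0.025 under TMM scaling. The 7 genes summed to 964 TPM in GC-1spg against 1214 TPM in GC-2spd (ts), at a log2 ratio of 0.33 (0.28 to 0.39). *Psma5* had 1188 and 1653 tags and *Psma2* had 1159 and 1453, the highest in the ring in both libraries. *Psma3* had 758 and 875 tags, *Psma1* 588 and 736, and *Psma6* 423 and 439. The intervals of the first 4 lie above 0 and that of *Psma6* includes 0. The leading tag of *Psma5* is also present in 1 pseudogene, and *Psma5* has no tag left without those shared with pseudogenes. *Psma4* had the largest ratio of the ring, with 227 and 355 tags (44.8 and 75.1 TPM), a log2 ratio of 0.75 (0.50 to 0.99, Audic-Claverie FDR 4.95e-09), below the fold threshold. Its leading tag lies in the 3′ UTR, exon 9, at chr9:54957933-54957953 (+).
*Psma4*: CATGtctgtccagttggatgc

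*Psma7* went the other way from the rest of its ring. It had 549 tags (108 TPM) in GC-1spg against 228 (48.2 TPM) in GC-2spd (ts), 2.24-fold lower, a log2 ratio of −1.17 (−1.40 to −0.94, Audic-Claverie FDR 1.27e-25). None of its leading tags in GC-1spg had the annotated sequence. The 2 forms of the tag, with the differing base in capitals, were as follows.
*Psma7*, annotated: catgaggcgggatcagccGct
*Psma7*, variant: catgaggcgggatcagccCct

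The annotated form had 0 copies in GC-1spg against 207 in GC-2spd (ts), and the variant form G19C, with positions counted from 1 at the first base of CATG, had 523 copies in GC-1spg against 0 in GC-2spd (ts). The libraries thus did not share a form of this tag. The base lies at chr2 position 180036944 in the coding sequence and leaves the encoded residue the same. With the mismatched tags counted, *Psma7* was called lower in GC-2spd (ts). With exact matches only, the 523 variant copies are dropped. *Psma7* then had 24 and 228 tags and was called higher at a log2 ratio of 3.35. Its direction thus rests on counting the variant form, and the exact ratio does not measure its level in GC-1spg.

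The same was seen in *Psmc4*, an ATPase of the 19S base. It had 709 tags (140 TPM) in GC-1spg against 419 (88.6 TPM) in GC-2spd (ts), at a log2 ratio of −0.66 (−0.83 to −0.48, Audic-Claverie FDR 4.83e-13), the lowest of the ATPases and below the fold threshold. Its tag lies at chr7:28041804-28041824 (−) in exon 11, at the end of the coding sequence, and its last base, in the 3′ UTR, differed between the libraries.
*Psmc4*, annotated: catgaattttacaagtgaccT
*Psmc4*, variant: catgaattttacaagtgaccC

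The annotated form had 0 copies in GC-1spg against 412 in GC-2spd (ts), and the variant T21C had 695 and 0. With exact matches only, which drop the 695 variant copies, *Psmc4* had 14 and 419 tags and was called higher at a log2 ratio of 5.01. A minor tag of *Psmd11* in the 3′ UTR, exon 14, at chr11:80472774-80472794 (+) differed in the same manner by C7T, with 0 and 31 copies of the annotated form and 50 and 0 of the variant.
*Psmd11*, annotated: catgctCtgtttttggtgcag
*Psmd11*, variant: catgctTtgtttttggtgcag

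These 3 genes belong to a pattern of the whole table that had 1 direction. A set of 93 genes had an annotated tag of at least 20 copies in GC-2spd (ts) with 0 in GC-1spg and a tag with 1 mismatch of at least 20 copies in GC-1spg with 0 in GC-2spd (ts), and 0 genes had the reverse. An annotated tag of at least 20 copies was present in both libraries in 7400 genes. Mismatched copies were 7.33% of the sense tags of *Psmd11* in GC-1spg, and among the proteasome genes outside these 3 the highest share in either library was 3.26%, in *Psmd4*. The labels used here do not name a strain for either line, and the source of the variant tags was not tested. A transcript of GC-1spg with more than 1 differing base in its tag would not be counted. A change in the CATG site would move its copies to a tag from another site. That tag is counted only where the annotation has it and it matches 1 gene.

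**Figure D3:**
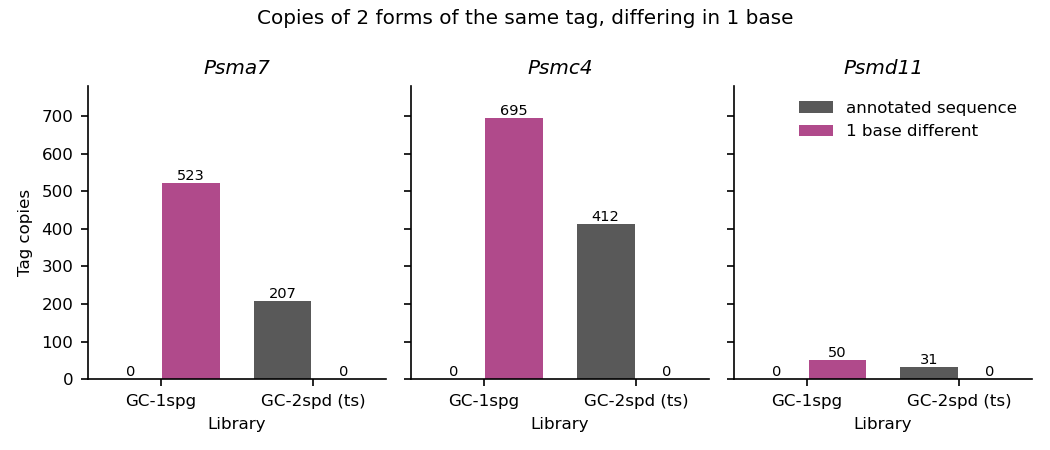
Copies of the annotated form (grey) and of the form with 1 different base (purple) of the same tag of *Psma7*, *Psmc4* and *Psmd11* in each library; bars start at 0 and there are no replicates. GC-1spg has only the variant form (523, 695 and 50 copies) and GC-2spd (ts) only the annotated form (207, 412 and 31 copies).

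In the beta ring 2 genes passed as higher in GC-2spd (ts). The other 5 had log2 ratios between −0.43 and −0.05. The ring summed to 1815 TPM in GC-1spg against 1924 TPM in GC-2spd (ts), at a log2 ratio of 0.08 (0.04 to 0.13), or −0.096 under TMM scaling. *Psmb4* and *Psmb2* encode structural subunits without a proteolytic site. *Psmb4* had 662 tags (131 TPM) in GC-1spg against 1694 (358 TPM) in GC-2spd (ts), 2.75-fold higher, a log2 ratio of 1.46 (1.33 to 1.59, Audic-Claverie FDR 4.47e-118), the largest ratio of all 38 genes. *Psmb2* had 403 tags (79.5 TPM) and 802 (170 TPM), 2.14-fold higher, a log2 ratio of 1.09 (0.92 to 1.27, Audic-Claverie FDR 4e-36). In both, a single tag held nearly all copies, 651 and 1679 for *Psmb4* and 403 and 797 for *Psmb2*, and mismatched copies were at most 1.74% of either gene in either library.

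The catalytic subunits did not share these ratios. *Psmb5*, which carries the chymotrypsin-like site, had 2346 and 2110 tags (463 and 446 TPM), and its interval of −0.14 to 0.03 includes 0. *Psmb6*, which carries the caspase-like site, had 429 and 297 tags (84.6 and 62.8 TPM), the lowest ratio of the ring at −0.43 (−0.65 to −0.21, Audic-Claverie FDR 0.000244), below the fold threshold. Its leading tag lies in the coding sequence of exon 6 at chr11:70527450-70527470 (+).
*Psmb6*: CATGgaacgcgacggctccag

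*Psmb7*, which carries the trypsin-like site, had 209 and 188 tags (41.2 and 39.8 TPM) of its own. This count leaves out tags that match more than 1 gene and is not the full level of the gene. When sense matches are preferred over antisense ones, *Psmb7* has 1871 and 2343 tags, and its log2 ratio turns from −0.05 to 0.43 (0.34 to 0.51).

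Of the remaining structural subunits, *Psmb1* had 4463 and 3513 tags (880 and 743 TPM), the highest of the 38 genes in both libraries, and *Psmb3* had 694 and 491 tags. The intervals of *Psmb1* (−0.31 to −0.18) and *Psmb3* (−0.57 to −0.23) lie below 0. The leading tag of *Psmb3* is also present in 3 pseudogenes, and only 2 and 9 of its tags occur in no pseudogene.

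The 6 ATPases of the 19S base, which unfold the substrate, summed to 761 TPM in GC-1spg against 720 TPM in GC-2spd (ts), at a log2 ratio of −0.08 (−0.15 to −0.01), and none was called. *Psmc2* had the highest ratio, with 530 tags (104 TPM) and 742 (157 TPM), a log2 ratio of 0.59 (0.42 to 0.75, Audic-Claverie FDR 4.81e-12). Its tag lies at the end of the coding sequence in exon 13, at chr5:21803689-21803709 (+).
*Psmc2*: CATGacatacaattgagcccc

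*Psmc4*, described above, had the lowest ratio. *Psmc5* was the most abundant ATPase with 1792 and 1409 tags (353 and 298 TPM), and its interval of −0.35 to −0.14 lies below 0. *Psmc3* had 361 and 337 tags, *Psmc6* 269 and 300, and *Psmc1* 199 and 197, and of these 3 only *Psmc6* had an interval above 0, at 0.02 to 0.50. Although the ATPases sit in 1 ring, their levels ranged from 39.2 to 353 TPM in GC-1spg and from 41.7 to 298 TPM in GC-2spd (ts).

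Among the 11 other 19S subunits 1 was called, 5 had an interval above 0 and 5 below 0. They summed to 1389 and 1577 TPM, a log2 ratio of 0.18 (0.14 to 0.23) or 0.0030 under TMM scaling, while their median log2 ratio was −0.12. *Psmd4*, a receptor for ubiquitin chains, was called higher with 158 tags (31.2 TPM) in GC-1spg against 368 (77.9 TPM) in GC-2spd (ts), 2.50-fold higher, a log2 ratio of 1.32 (1.05 to 1.60, Audic-Claverie FDR 1.33e-22). Its single leading tag had 156 and 357 copies. *Psmd4* had the lowest level in GC-1spg among the 17 genes of the 19S particle on the list. In the GC-2spd (ts) library it was above *Psmd1*, *Psmd14* and *Psmc1*, among others.

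*Psmd14*, the deubiquitinase that cuts the ubiquitin chain from the substrate, had the lowest ratio of these subunits, with 500 tags (98.6 TPM) and 283 (59.9 TPM), a log2 ratio of −0.72 (−0.93 to −0.51, Audic-Claverie FDR 6.05e-11), below the fold threshold. *Psmd7*, the inactive partner that binds *Psmd14* in the lid, had 515 and 863 tags (102 and 183 TPM) and an interval of 0.69 to 1.01. These partners, which pair in the complex, thus differed between the lines in opposite directions by more than counting error. The *Psmd14* tag, at chr2:61800006-61800026 (+) in the coding sequence of exon 12, is also present in 1 pseudogene. Without tags shared with pseudogenes *Psmd14* has 16 and 4 tags, at a log2 ratio of −1.90.
*Psmd14*: CATGtggatgtgcttatgact

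The scaffold subunits *Psmd1* and *Psmd2* had 261 and 181 tags and 1426 and 1202 tags, with intervals below 0 in both. *Psmd8* had 676 and 1060 tags, *Psmd6* 642 and 818, and *Psmd3* 1144 and 1305, all lid subunits with an interval above 0. The lid subunits *Psmd11*, with 682 and 511 tags, and *Psmd13*, with 616 and 499, had intervals below 0, and *Psmd12*, with 425 and 365, had an interval that includes 0. The leading tag of *Psmd13* is also present in 1 pseudogene. Without tags shared with pseudogenes *Psmd13* has 34 and 53 tags and an interval of 0.09 to 1.41. *Psmd11* has a further tag of 750 and 718 copies that also matches the opposite strand of the non-coding gene *A730017L22Rik*, on another chromosome, and that was left out.

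The 3 chaperones that assemble the base did not share a direction, and none was called. *Psmd5* had the highest ratio, with 673 tags (133 TPM) and 856 (181 TPM), a log2 ratio of 0.45 (0.30 to 0.60, Audic-Claverie FDR 8.75e-09), from a tag in the 3′ UTR, exon 10, at chr2:34852304-34852324 (−). *Psmd10*, also known as gankyrin, had the lowest level of the 37 genes, with 112 tags (22.1 TPM) and 54 (11.4 TPM), a log2 ratio of −0.95 (−1.45 to −0.47, Audic-Claverie FDR 0.000151), from a leading tag in the 3′ UTR, exon 5, at chrX:140948617-140948637 (−). *Psmd9* had 307 and 189 tags, nearly all from the third CATG site from the 3′ end, and an interval of −0.87 to −0.33.
*Psmd5*: CATGacatttttaaaaaataa
*Psmd10*: CATGtatctttttaactaact

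The activators open the gate of the 20S core in place of the 19S particle, and 1 of the 4, *Psme1*, was called lower. *Psme1*, a subunit of the interferon-inducible cytoplasmic activator, had 969 tags (191 TPM) in GC-1spg against 288 (60.9 TPM) in GC-2spd (ts), 3.14-fold lower, a log2 ratio of −1.65 (−1.84 to −1.46, Audic-Claverie FDR 7.77e-75). Its leading tag held 966 and 288 of these copies. The tag is also present in 1 pseudogene. Without tags shared with pseudogenes *Psme1* has 3 and 0 tags, no log2 ratio and no call.

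*Psme2* encodes the partner of *Psme1* in the same ring and lies beside it on chr14, at chr14:55587441-55591113 (−). Tags of *Psme2* alone had 3 and 4 copies, because a tag with far more copies is also that of *Psme2b*, a close copy at chr11:48945354-48946190.
*Psme2* and *Psme2b*: CATGgtgctggacctgagggc

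The shared tag had 885 copies in GC-1spg against 570 in GC-2spd (ts). Counted for *Psme2*, an alternative chosen after seeing the data, it gives 900 and 582 tags and a log2 ratio of −0.53 (−0.68 to −0.38), in the same direction as *Psme1* and smaller. Which of the 2 genes the tags came from cannot be told apart. *Psme3*, the activator of the nucleus, had 1232 and 1239 tags (243 and 262 TPM), a log2 ratio of 0.11 (−0.01 to 0.22, Audic-Claverie FDR 0.111), the highest of the activators with at least 100 tags. *Psme4*, an activator known for its part in histone removal in spermatids, had 222 and 210 tags (43.8 and 44.4 TPM) and an interval of −0.26 to 0.30. The leading tag of *Psme3* lies in the 3′ UTR, exon 11, at chr11:101323484-101323504 (+).
*Psme3*: CATGtcaagaaattattaaaa

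**Figure D4:**
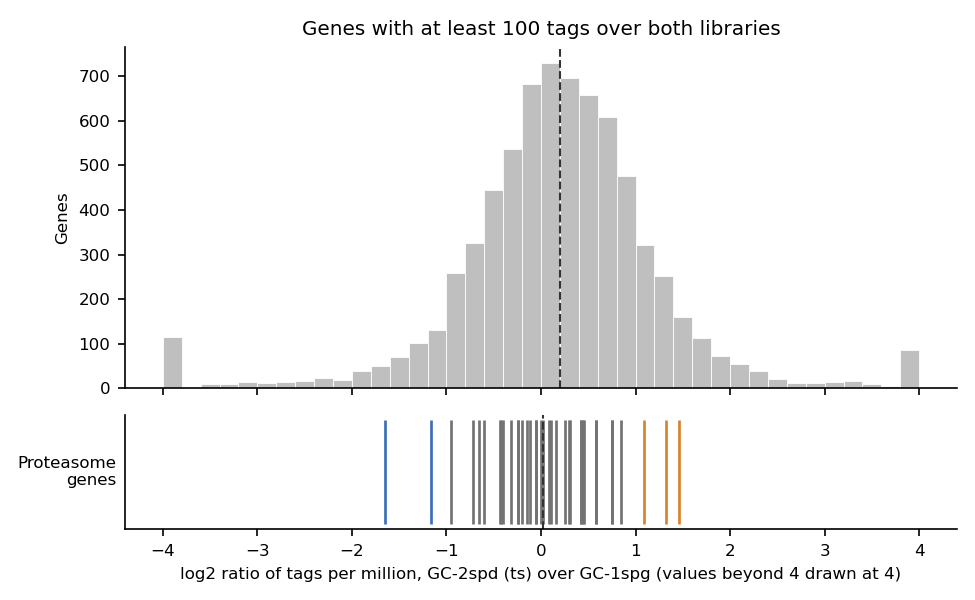
Number of genes by log2 ratio of GC-2spd (ts) over GC-1spg, for the 7233 genes with at least 100 tags (top, bins of 0.2) and, as 1 line each, for the 37 proteasome genes at that depth (bottom; called genes in colour). Dashed lines mark the medians, 0.20 for all genes and 0.02 for the proteasome genes, which lie between −1.65 and 1.46.

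By the tags that match 1 gene, most of the genes were read from 1 site. A second CATG site with at least 10% of these sense tags over both libraries was present in 7 genes. In *Psmc6* and *Psmd8* the balance of the sites differed between the lines with intervals (exact Clopper-Pearson, counting error only) that did not overlap. The intervals of *Psmb1* and *Psme3*, given below, did not overlap either. The share of all genes with such a difference was not computed, so these differences have no background beside them. The sites of *Psmc6* both lie in the 3′ UTR, exon 14. The site nearer the stop codon had 162 of 269 tags (60.22%, 54.10 to 66.12) in GC-1spg against 106 of 300 (35.33%, 29.93 to 41.03) in GC-2spd (ts). The site nearest the 3′ end had 87 (32.34%, 26.79 to 38.29) and 154 (51.33%, 45.52 to 57.12). The leading site of *Psmc6* therefore changed between the lines while its sum of tags differed by 1.20-fold.
*Psmc6*, site nearer the stop codon: CATGtttggtgatgttgcatt
*Psmc6*, site nearest the 3′ end: CATGtggcaatcaaaagttgt

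In *Psmd8* a site in the coding sequence of exon 5, the 3′-most site of an annotated transcript, had 446 of 676 tags (65.98%, 62.27 to 69.55) in GC-1spg against 842 of 1060 (79.43%, 76.87 to 81.83) in GC-2spd (ts). A site in the 3′ UTR of exon 7 had 205 tags (30.33%, 26.88 to 33.95) and 178 (16.79%, 14.59 to 19.18). The copies of the coding site thus went from 446 to 842 and those of the UTR site from 205 to 178.
*Psmd8*, coding site: CATGgagggtagctacaacaa
*Psmd8*, UTR site: CATGaaactgactttgtctat

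In *Psmb1* the leading site held 76.32% and 79.02% of tags and in *Psme3* 88.56% and 84.50%, with intervals that do not overlap but shares that differ by little. In *Psmc1*, *Psmd10* and *Psmd12* the intervals of both sites overlap between the libraries.

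**Figure D5:**
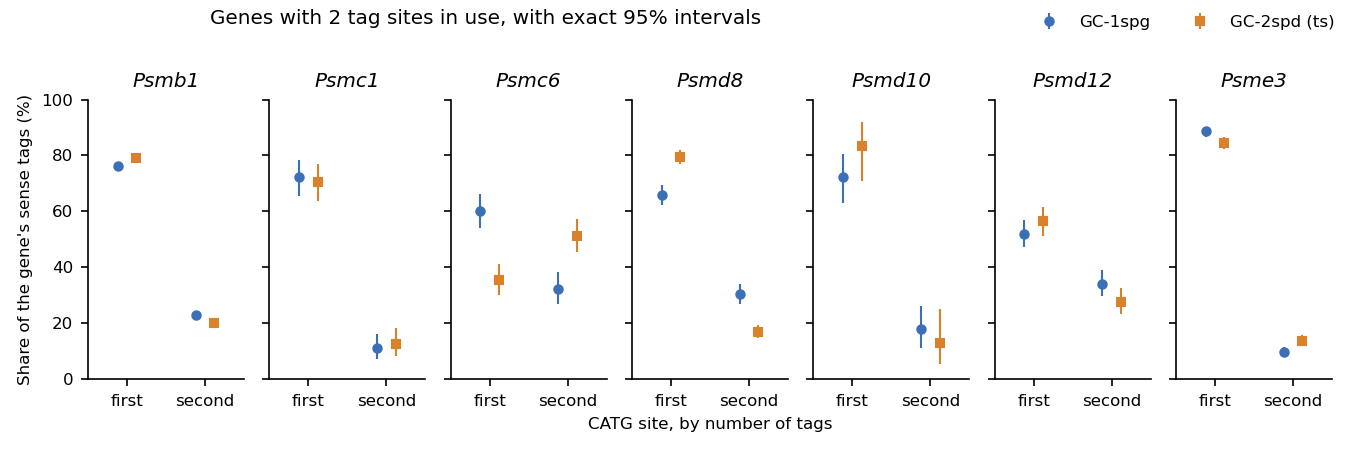
Share of each gene's sense tags at its first and second CATG site, by number of tags, in GC-1spg (circles) and GC-2spd (ts) (squares), with exact 95% intervals. In *Psmc6* the first site goes from 60.22% to 35.33% and the second from 32.34% to 51.33%; in *Psmd8* the first site goes from 65.98% to 79.43%.

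Of 36 related genes on a list outside the 38, 32 had a tag, 3 passed the test as higher in GC-2spd (ts) and 1 as lower, beside the shares of all genes given above. The subunits that replace the catalytic ones under immune signals were partly different between the lines. *Psmb8* had 23 tags (4.53 TPM) and 93 (19.7 TPM), 4.34-fold higher, a log2 ratio of 2.12 (1.45 to 2.84, Audic-Claverie FDR 1.91e-11), and *Psmb9* had 10 tags (1.97 TPM) and 43 (9.10 TPM), a log2 ratio of 2.21 (1.19 to 3.36, Audic-Claverie FDR 6.77e-06). *Psmb10*, the third of these subunits, had 519 and 489 tags (102 and 103 TPM), an interval of −0.17 to 0.20.

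*Psma8*, the alpha subunit of the testis, and *Psmb11*, the beta subunit of the thymus, had no tag of their own in either library. The files list only tags of at least 2 copies. *Usp14*, a deubiquitinase bound to the 19S particle, was called higher with 276 and 520 tags, a log2 ratio of 1.02 (0.80 to 1.23, Audic-Claverie FDR 4.81e-21), which is 0.84 under TMM scaling and no longer called.

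*Nfe2l2*, a transcription factor of the stress response, was called lower with 80 and 25 tags, a log2 ratio of −1.58 (−2.29 to −0.91, Audic-Claverie FDR 1.40e-06). *Nfe2l1*, the transcription factor that raises proteasome genes when degradation fails, had 1353 and 1044 tags (267 and 221 TPM), a log2 ratio of −0.27 (−0.39 to −0.15, Audic-Claverie FDR 1.69e-05), below the fold threshold. *Pomp*, the maturation factor of the 20S core, had 476 and 264 tags (93.8 and 55.9 TPM), a log2 ratio of −0.75 (−0.97 to −0.53, Audic-Claverie FDR 3.77e-11), also below it.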

How the data were processed

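DGE tags were measured in 1 library per cell line. The authors removed adaptor, low quality and single copy tags and deposited the remaining sequences with their raw counts and TPM. Deposited TPM values are counts scaled to a library sum of 1000000, and no count is below 2. Their matching to UniGene was not used here.

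CATG+17 tags were taken from all transcripts of GENCODE release M21 (GRCm38) on both strands, without pseudogenes. Tags were matched with at most 1 mismatch, exact matches first, and a tag whose best matches lay in 1 gene was summed for it when sense. TPM used all clean tags (1 copy, 0.197 and 0.212 TPM). The two-sided Audic-Claverie test was adjusted by Benjamini-Hochberg over 14292 genes and tested on simulated data. The simulated libraries held counting error only, so they could not show how the test behaves with variation between cultures. 0.01 TPM replaced 0. edgeR's quasi-likelihood test and DESeq2 need replicates and could not be fitted. The exact test of edgeR 4.0.16 (R 4.3.3) used assumed coefficients of variation of 0.1, 0.2 and 0.4. The rest was computed in Python 3.11.15 (scipy 1.17.1, numpy 2.4.6, pandas 2.3.3; figures by matplotlib 3.10.9).

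Named in full are the called genes and the highest and lowest ratio of each subgroup with at least 100 tags, and of the related list the called genes and 7 set ones. Tag forms and second sites were examined after values were seen. Of the alternatives, 14 were planned (exact matching, competing pseudogenes, sense preference, the 3′-most site, 3 scalings, minima of 10 and 100 tags, a binomial test, the 3 edgeR fits and 0.5 added tags) and 1, *Psme2* with *Psme2b*, was added. The genes and lists were chosen with earlier results of these data known. A tag of 1 gene is not reported here.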

Additional observations from a re-analysis of the deposited data

Results flagged for a closer look

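The comparisons above used sense tags of 1 gene, and the values below come from tags outside them. Antisense tags were present for each of the 38 genes and summed to 2623 copies in GC-1spg against 2118 in GC-2spd (ts), 8.42% and 6.91% of both strands. *Psme2* had more antisense than sense copies of its own, 37 in GC-1spg against 11 in GC-2spd (ts), since its main sense tag is left out. The tag shared by *Psmd11* and the opposite strand of *A730017L22Rik* had 750 and 718 copies, and the tag shared by *Psme2* and *Psme2b* had 885 and 570. These values have no control sample beside them, and what produced them was not tested.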

How the results depend on the processing

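No paired analysis was possible because each line has 1 library. For the same reason no library could be left out. Of the recomputed log2 ratios of single genes, 236 kept their direction and stayed called or not called as before. Of the others 21 turned sign, 3 became called and 2 were no longer called. The 236 include *Psmd14* with competing pseudogenes, at −1.90 on 16 and 4 tags, which is past the fold threshold but not called. Group sums, medians and counts of calls are not part of these numbers and follow separately. Over all genes, 1692 were called higher and 1137 lower. A minimum of 100 tags left 629 lower calls. The split was 1288 higher and 1462 lower under TMM, and 1314 and 1437 under median-of-ratios scaling. edgeR's exact test called 509 and 489 genes at an assumed coefficient of variation of 0.2, and 107 and 136 at 0.4. At both it called 0 proteasome genes and 0 related genes in either direction. Exact matching gave 5 proteasome genes called higher and 1 lower, and letting pseudogenes compete left 1 lower call. The higher calls by exact matching include *Psma7* and *Psmc4*, whose variant copies in GC-1spg it drops.

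The summed log2 ratios under TMM, median-of-ratios and assigned-tag scaling, in this order, were −0.078, −0.066 and 0.020 for all 38 genes, −0.0052, 0.0070 and 0.093 for the 20S core, −0.085, −0.073 and 0.013 for the 19S subunits, 0.15, 0.16 and 0.25 for the alpha ring, −0.096, −0.084 and 0.0020 for the beta ring, −0.26, −0.25 and −0.16 for the ATPases, and 0.0030, 0.015 and 0.10 for the other 19S subunits. Under the first 2 they were −0.069 and −0.057 for the chaperones and −0.56 and −0.55 for the activators. The medians were −0.13 and −0.11 for the 38 genes and −0.048 and −0.035 for all genes. Exact matching gave 0.17 for all 38 genes, 0.23 for the core, 0.20 for the 19S subunits, 0.50 for the alpha ring and 0.21 for the ATPases. These sums leave out the variant copies of *Psma7* or *Psmc4* in GC-1spg, or of both. Pseudogene competition gave 0.15 for all 38 genes, 0.15 for the 19S subunits, 0.24 for the alpha ring, 0.28 for the other 19S subunits and 0.094 for the activators. Preferring sense matches gave 0.21 for the core and 0.15 for the beta ring, and the 3′-most site gave 0.36 for the chaperones.

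The sign of single genes turned in 21 cases. Under TMM and median-of-ratios scaling *Psma6* was at −0.025 and −0.013, *Psmc1* at −0.093 and −0.081, *Psmc3* at −0.18 and −0.17, *Psme3* at −0.071 and −0.058, and *Psme4* at −0.16 and −0.15, and under assigned-tag scaling *Psmc3* was at −0.080 and *Psme4* at −0.061. Exact matching, which drops their variant copies in GC-1spg, turned *Psma7* to 3.35 and *Psmc4* to 5.01. Pseudogene competition turned *Psmb3* to 2.27 and *Psmd13* to 0.74, sense preference turned *Psmb7* to 0.43, and the 3′-most site turned *Psmc3* to −0.037, *Psmd9* to 1.10 and *Psme4* to −0.032. *Psme2* counted with *Psme2b* was at −0.53. *Psma5*, *Psme1* and *Psme2* have no log2 ratio when pseudogenes compete, nor *Psma2* and *Psmb7* at the 3′-most site. Beyond these constructions the cause was not tested. Counting error sets the precision, and variation between cultures is unknown.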
